A study of Drosophila melanogaster with 12 samples.

Results

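The Osiris and Tweedle genes are 2 insect gene families active in cells that make cuticle, and their transcripts were followed through 4 genotypes of whole Drosophila melanogaster larvae. Members were chosen by symbol alone, as every FlyBase gene whose symbol begins with Osi and a number or with Twdl, and 48 of the 17185 gene IDs in the count files matched, 23 of the 25 annotated Osiris genes and 25 of the 26 annotated Tweedle genes. Osi10a, Osi10b and TwdlU had no matching ID and were not analysed here. The study asked how larvae develop without glycerol-3-phosphate dehydrogenase (Gpdh1) and lactate dehydrogenase (Ldh), enzymes that both regenerate NAD+ during glycolysis. All larvae came from a w[1118] background, and all of them, controls included, carried the Gpdh1[12] allele. Gpdh1 heterozygotes were Gpdh1[12]/+, Gpdh1 mutants were Gpdh1[12]/[14], double heterozygotes were Gpdh1[12]/+; Ldh[16]/+, and double mutants were Gpdh1[12]/[14]; Ldh[16]/[17], with 3 libraries in each group. No group lacked Ldh alone, and none was wild type at Gpdh1. Eggs were kept for 60 h at 25 degrees C. The labels call the larvae mid-L3, whereas the study's methods call larvae of this age mid-L2.

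Each library was made from a pool of whole larvae, so that fewer cells of a type and less RNA per cell cannot be told apart in any value given here, and p-values measure the spread between these pools, which may be partly technical. Libraries held between 22339930 and 26605495 counts assigned to genes. Osiris genes took 0.458% to 1.39% of them and Tweedle genes 0.120% to 1.55%. Levels are given as CPM, the count of a gene per 1000000 counts of its library, after normalisation of the library sizes across the 12 libraries. Gpdh1 itself was at 412 to 520 CPM in the Gpdh1 heterozygotes, 232 to 288 in the Gpdh1 mutants, 445 to 506 in the double heterozygotes and 60.8 to 61.9 in the double mutants, and Ldh was at 3.60 to 4.24 CPM in the double mutants against 379 to 521 in the other libraries.

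The larval body is enclosed in a cuticle of chitin and protein that epidermal, tracheal and gut lining cells secrete at their apical face and renew at each molt under the control of ecdysone. Osiris genes encode insect-specific proteins with a signal peptide and are switched on together in cells that lay down cuticle. Most of them lie in 1 cluster on chromosome 3R that overlaps the Triplo-lethal locus, known for being harmful both in excess and in deficit. Osi23, also called gore-tex, is needed for the nanopores of olfactory bristles. Tweedle genes encode structural proteins that become part of the cuticle itself, and mutations in TwdlD or in the neighbouring gene Tubby (Tb), which encodes TwdlA, give short and stout larvae. Tb carries no Twdl symbol and so was not a member. The roles of most other single members are not established well enough to be given here.

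By the BDGP6.54 annotation, 22 Osiris genes lie at chr3R:6173549-6341424, a stretch of 168 kb in which 20 of them are read from the plus strand. Of these 22 genes, 20 were in the files, and 16 of those passed the filter on low counts. Osi21 on chromosome 2L and Osi22 and Osi23 elsewhere on 3R stood alone. The Tweedle genes are more dispersed. Their largest cluster, at chr3R:26619118-26693590, holds 13 members over 74.5 kb in the order TwdlM, P, B, L, O, K, J, N, H, R, S, D and Q, with 7 read from the plus and 6 from the minus strand. TwdlF, G and V (with TwdlU) lie at chr3R:4243606-4255833, TwdlC and TwdlT at chr3R:26994832-27051004, and TwdlX, Y, Z and Twdlalpha at chrX:16731091-16744365, while TwdlE, TwdlW and Twdlbeta stood alone on 2L, 3R and 2R. The 48 members in the files are annotated as protein coding, and TwdlU as a pseudogene. Exons of Osi21 overlap those of mre11 and exons of TwdlE those of lectin-28C on the other strand, and Twdlalpha shares exon sequence with CG32568, so counts of these members are uncertain.

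Of the 23 Osiris genes, 7 were too scarce to be tested. Osi21 had 0 counts among 294428639 over the 12 libraries, which allows a level of up to 0.0102 CPM at this depth, counting error only. The other untested genes had totals over all libraries of 1 count (Osi11), 4 (Osi1), 8 (Osi23), 13 (Osi22), 24 (Osi3) and 38 (Osi4). The 25 Tweedle genes all passed the filter and had counts in every library.

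A single library stood apart from its group before any comparison was made. Double heterozygote replicate 2 held 5606 CPM of Osiris and 1159 CPM of Tweedle transcripts, whereas replicates 1 and 3 held 14333 and 13012 CPM of Osiris and 3411 and 6155 CPM of Tweedle. Relative to the mean of replicates 1 and 3, its level had a median of 39.0% over the 16 tested Osiris genes (range 0% to 178%) and of 13.3% over the Tweedle genes (range 0.377% to 216%), against 101% over all 10880 genes tested. It was the lowest of the 12 libraries for 21 of the 25 Tweedle genes and for 2 of the 16 Osiris genes, compared with 12.0% of all genes. The same library was low in genes of chitin synthesis (3608 CPM summed, against 6606 and 8748), in cuticle tanning genes (169 CPM, against 339 and 372) and in larval serum protein genes (569 CPM, against 3306 and 4044), and unremarkable in muscle genes (54068 CPM, against 57137 and 59639). What set it apart was not tested, and counts of called genes that it moved by over 1.5 times are given with and without it.

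**Figure D1:**
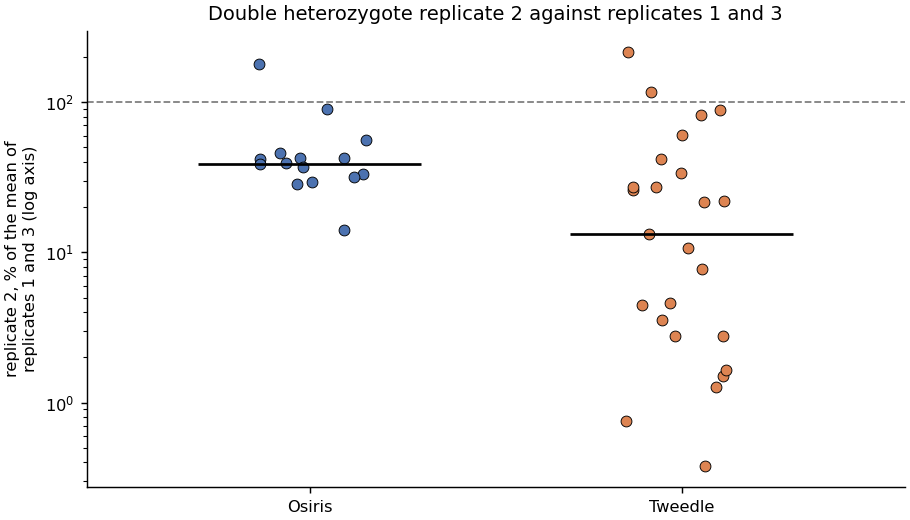
Level of each tested member in double heterozygote replicate 2 as a percentage of the mean of replicates 1 and 3 of the same group, on a log axis. Points are genes, black bars are family medians (39.0% for Osiris, 13.3% for Tweedle) and the dashed line marks 100%; Osi13, with 0 counts in replicate 2, is not drawn. Most Tweedle genes lie below most Osiris genes.

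The families followed different courses over the 4 genotypes. Summed Osiris transcripts were at 12916, 13059 and 13023 CPM in the Gpdh1 heterozygotes, 10661, 13019 and 10443 in the Gpdh1 mutants, and 4172, 4175 and 4156 in the double mutants. The first 2 groups overlapped, and the double mutants were below every other library. Summed Tweedle transcripts were at 14466, 17479 and 12868 CPM in the Gpdh1 heterozygotes, 6123, 6913 and 7187 in the Gpdh1 mutants, and 2454, 2484 and 2571 in the double mutants. Here the Gpdh1 mutants already lay below their controls, and the double mutants lay within the range of the double heterozygotes (1159 to 6155). The Tweedle to Osiris ratio was 0.988 to 1.34 in the Gpdh1 heterozygotes, 0.531 to 0.688 in the Gpdh1 mutants, 0.207 to 0.473 in the double heterozygotes and 0.588 to 0.619 in the double mutants. These sums carry no test, since the members are not replicates. Among replicates, the median coefficient of variation of a Tweedle gene was 22.6% in the Gpdh1 heterozygotes and 80.4% in the double heterozygotes, compared with 8.19% and 8.36% over all genes, and it was 3.68% in the double mutants.

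**Figure D2:**
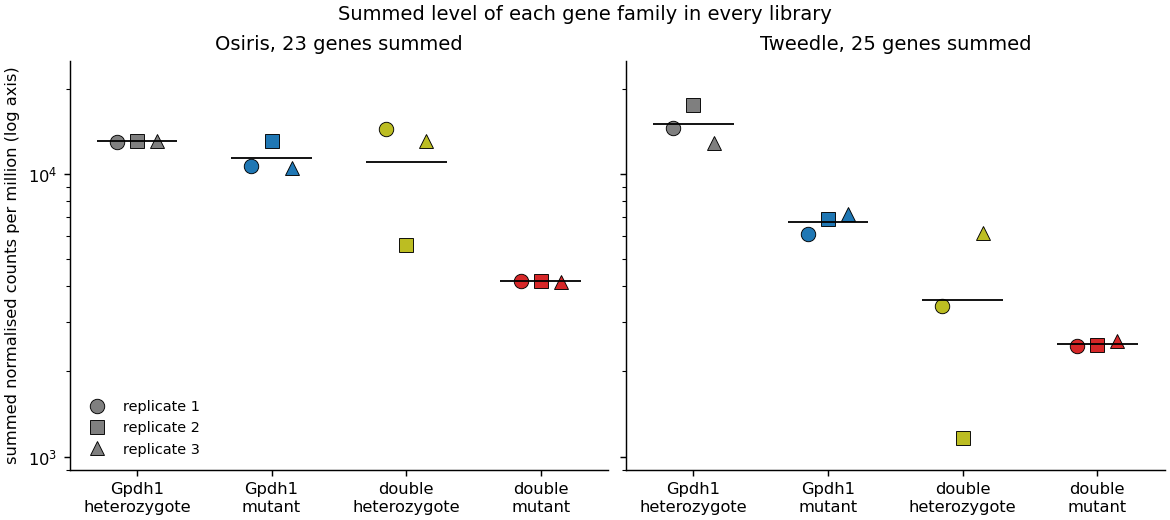
Summed CPM of the 23 Osiris genes (left) and the 25 Tweedle genes (right) in each library, on a log axis. Colours are groups, symbols are replicates and lines are group means; the double mutants sit at 4156 to 4175 for Osiris, below the other libraries, whereas their Tweedle sums lie inside the range of the double heterozygotes.

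In Gpdh1 mutants the Osiris genes stayed close to their controls. Of 16 tested, 1 fell and 0 rose, beside 20.2% of all 10592 genes that fell and 17.9% that rose. The median log2 fold change was -0.13, against 0.01 over all genes. In 12 of 16 the ranges of the groups overlapped. They were apart and lower in 3 and apart and higher in 1, beside 27.6% and 26.1% of all genes. The gene that fell was Osi14, a log2 change of -0.36 ± 0.11 (SE, adjusted p = 0.0339). That call was lost when all 12 libraries entered the fit (adjusted p = 0.332) and when any library of the comparison other than Gpdh1 heterozygote replicate 3 was left out, and DESeq2 called 3 Osiris genes.

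Among the abundant Osiris genes the double mutants stood lowest. Osi6 was at 3686, 4371 and 4116 CPM in the Gpdh1 heterozygotes, 3056, 4306 and 2847 in the Gpdh1 mutants, 4668, 1662 and 3769 in the double heterozygotes and 1355, 1328 and 1302 in the double mutants. Osi6 had the highest level per kilobase of exon of the family, 2198 CPM per kb in the Gpdh1 heterozygotes and 720 in the double mutants. In every double mutant library it was below the other 9 libraries, and its log2 fold change was -0.25 ± 0.16 (SE) in Gpdh1 mutants and -1.34 ± 0.35 (SE) in double mutants. Osi7 was at 2245, 2635 and 2600.2 CPM in the Gpdh1 heterozygotes, 2015, 2739.8 and 2023 in the Gpdh1 mutants, 3384, 1288 and 2747 in the double heterozygotes and 983, 1016 and 943 in the double mutants. Osi15 was at 1648, 1449.7 and 1580.3 CPM in the Gpdh1 heterozygotes, 1459, 1566 and 1508 in the Gpdh1 mutants, 1797, 992 and 1770.5 in the double heterozygotes and 529, 543 and 561 in the double mutants. Both repeated this order, with log2 fold changes in double mutants of -1.34 ± 0.33 (SE) for Osi7 and -1.48 ± 0.22 (SE) for Osi15. For Osi15 double heterozygote replicate 2 was nearer to its group (55.6% of the mean of replicates 1 and 3) than for Osi6 (39.4%) or Osi7 (42.0%).

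Osi9 was at 1087, 1070.5 and 1085 CPM in the Gpdh1 heterozygotes, 927, 1107 and 944 in the Gpdh1 mutants, 1262, 518 and 1178 in the double heterozygotes and 351, 352 and 359 in the double mutants. Osi19 was at 1093, 983 and 1027 CPM in the Gpdh1 heterozygotes, 929, 961 and 831 in the Gpdh1 mutants, 949.7, 323 and 978 in the double heterozygotes and 239.6, 236 and 243 in the double mutants. Osi20 was at 1436, 1081 and 1173 CPM in the Gpdh1 heterozygotes, 1048, 948 and 1011 in the Gpdh1 mutants, 953, 327 and 1097 in the double heterozygotes and 291, 282 and 299 in the double mutants. None of these 3 genes passed the test in Gpdh1 mutants, with adjusted p-values of 0.291, 0.105 and 0.0776, while the log2 fold changes in double mutants were -1.48, -1.65 and -1.45, in that order. In Osi20 the second double heterozygote library, 327 CPM, was close to the highest double mutant, 299 CPM. Without that library the log2 fold change of Osi20 was -1.80.

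Osi18 was at 591, 556 and 549 CPM in the Gpdh1 heterozygotes, 488, 564 and 479 in the Gpdh1 mutants, 581, 219.7 and 607 in the double heterozygotes and 160.3, 159 and 173 in the double mutants. Osi14 was at 554, 489 and 413 CPM in the Gpdh1 heterozygotes, 369, 388 and 375 in the Gpdh1 mutants, 372, 156 and 438 in the double heterozygotes and 118, 113 and 132 in the double mutants. Both had their 3 lowest values in the double mutants, with log2 fold changes of -1.52 ± 0.37 (SE) and -1.41 ± 0.36 (SE). Osi2 was at 442, 272 and 324 CPM in the Gpdh1 heterozygotes, 232, 246 and 282 in the Gpdh1 mutants, 175, 31.4 and 270.0 in the double heterozygotes and 82.7, 82.8 and 82.3 in the double mutants. Osi2 was the exception among abundant members, since double heterozygote replicate 2 lay below the double mutants, and neither mutant contrast passed the test for it, at -0.45 ± 0.17 (SE) and -0.95 ± 0.66 (SE).

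Scarcer Osiris genes were closer to the counting floor and less uniform. Osi17 was at 65.0, 68.0 and 72.5 CPM in the Gpdh1 heterozygotes, 65.2, 92.6 and 67.9 in the Gpdh1 mutants, 93.5, 38.6 and 75.5 in the double heterozygotes and 28.6, 29.8 and 29.2 in the double mutants. Osi16 was at 3.77, 7.25 and 8.32 CPM in the Gpdh1 heterozygotes, 6.91, 10.2 and 7.82 in the Gpdh1 mutants, 5.76, 4.79 and 4.81 in the double heterozygotes and 2.80, 3.04 and 3.06 in the double mutants. Both were lower in double mutants than in every control library, by -1.25 ± 0.30 (SE) and -0.79 ± 0.11 (SE) on the log2 scale, and both had their highest Gpdh1 mutant in replicate 2. Osi24 ran between 23.9 and 24.2 CPM in the double mutants and between 31.3 and 79.2 in the double heterozygotes, with a log2 change of -1.31 ± 0.32 (SE, adjusted p = 0.0146). Osi12 was the only tested Osiris gene that double heterozygote replicate 2 did not hold lowest in its group, at 11.8 CPM beside 7.59 and 5.67, and it too fell in double mutants (adjusted p = 0.0181). Osi5 was at 0.882 to 1.15 CPM in the double mutants and 0.989 to 3.98 in the double heterozygotes, ranges that overlapped, with a log2 change of -1.29 ± 0.49 (SE, adjusted p = 0.0650). Osi8 and Osi13 stayed below 1.20 CPM in all libraries and were too scarce for the test of the double mutants.

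Taking the family as a whole, 12 of 14 tested Osiris genes fell and 0 rose in double mutants relative to double heterozygotes, beside 25.9% of 10650 genes that fell and 25.3% that rose, and the median log2 fold change was -1.34. The groups did not overlap for these 12 genes, all lower, beside 31.4% of all genes not overlapping and lower. Without double heterozygote replicate 2, 15 of 15 tested fell, beside 3092 of all 10780 genes that fell and 3113 that rose. The double mutant libraries were close to each other. Chi-square per degree of freedom over all genes, which is near 1 for counting noise alone, was 2.35 between double mutant replicates 1 and 2. It was 9.31 and 11.5 for the other pairs of that group, and 12.2 to 113 within the other groups. The median coefficient of variation in the double mutants was 3.36% for an Osiris gene and 4.77% over all genes. Whether these libraries came from separate pools was not tested. The calls also depended on the number of double mutant libraries. Without replicate 1, 2 or 3 of the double mutants, 3, 5 and 4 Osiris genes fell, beside 2041 of 10743, 2076 of 10765 and 2259 of 10765 genes. With the 3 double mutant libraries added up and treated as 1 sample, the log2 fold change was -1.35 for Osi6 and -1.49 for Osi15.

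**Figure D3:**
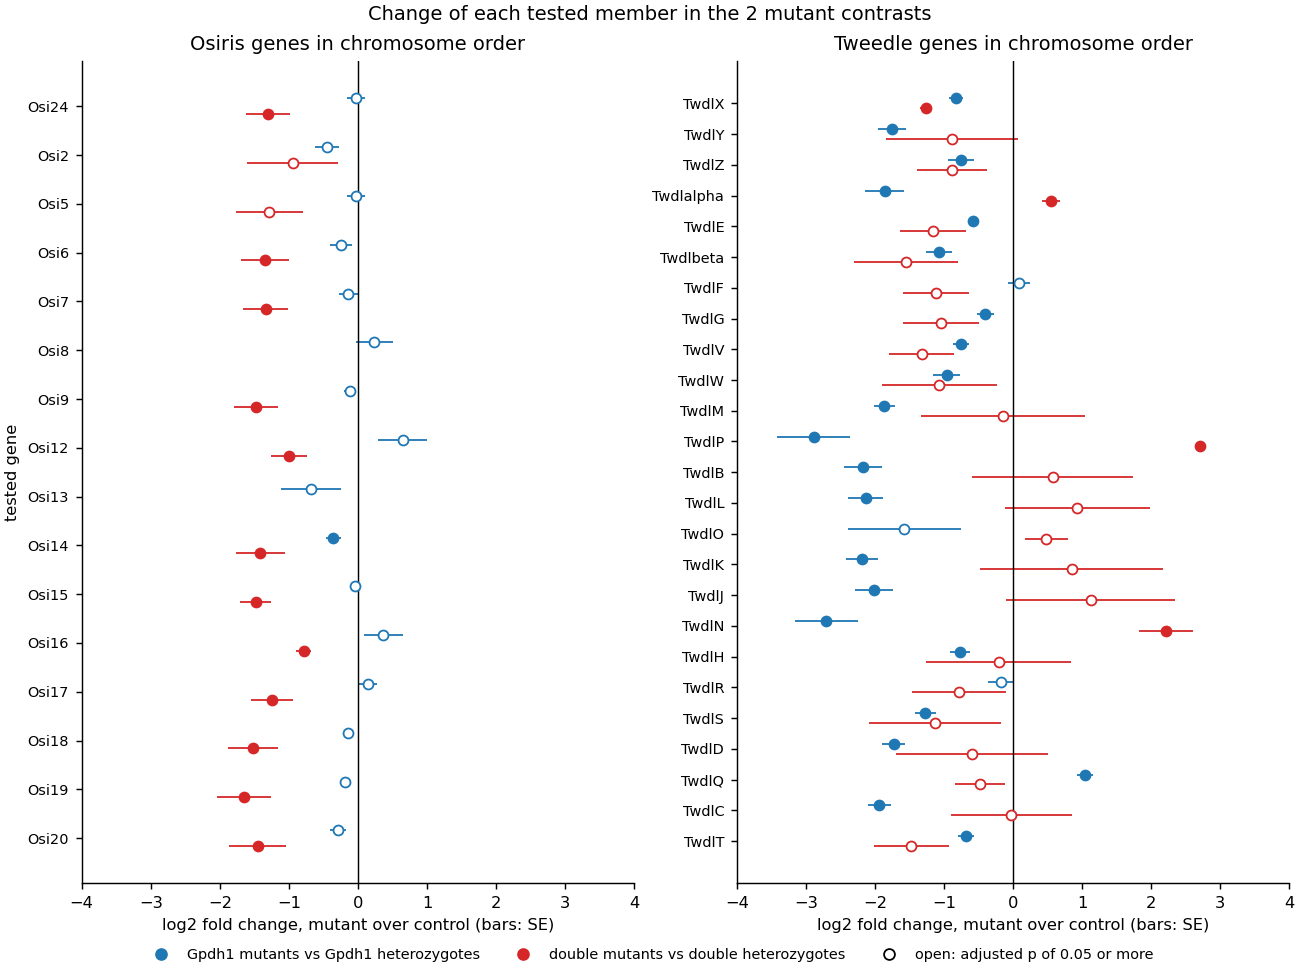
Log2 fold change of each tested member in Gpdh1 mutants (blue) and double mutants (red) relative to their own heterozygous controls, with bars of 1 SE; filled points have an adjusted p under 0.05. Osiris genes (left) sit near 0 in Gpdh1 mutants and near -1.34 in double mutants, while most Tweedle genes (right) lie below 0 in Gpdh1 mutants and carry wide errors in double mutants.

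Set directly against the Gpdh1 mutants, the double mutants were lower in 15 of 16 tested Osiris genes and higher in 0, beside 20.0% of 10880 genes lower and 18.9% higher, with a median log2 fold change of -1.49 and a range of -1.92 (Osi19) to -1.06 (Osi12). Osi13 did not pass the test (adjusted p = 0.139). This comparison does not use the double heterozygotes except for the shared estimate of spread, but it shares the double mutant libraries with the one before it. Between the double heterozygotes and the Gpdh1 heterozygotes, edgeR called 0 of 16 Osiris genes and DESeq2 0, beside 12.3% of all genes lower and 14.1% higher. By edgeR 1 had an unadjusted p under 0.05. In the double heterozygotes the median coefficient of variation of an Osiris gene was 45.8%, against 8.36% over all genes. A missed threshold here does not show that the control groups were alike, and 14 of the 16 changes were below 0. The median log2 fold change was -0.30, and the ranges of the groups overlapped in 13 of 16. They were apart and lower in 3 and apart and higher in 0, beside 18.2% and 21.6% of all genes.

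The change in double mutants also differed from the change in Gpdh1 mutants for part of the family. A test of that difference called 9 of 16 Osiris genes lower and 0 higher (Osi7, 9, 12, 15, 16, 17, 18, 19 and 24), beside 13.5% of all genes lower and 12.0% higher, with a median difference of -1.26 log2 units. Osi15 had the smallest adjusted p among them, at a log2 change of -1.44 ± 0.25 (SE, adjusted p = 0.00232). Without double heterozygote replicate 2, 14 Osiris genes were called lower, beside 1704 of all 11008 genes. Leaving out any other library except Gpdh1 heterozygote replicate 1 brought the count to between 3 and 5, and with the double mutant libraries summed it was 1.

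The Tweedle genes fell broadly in Gpdh1 mutants. Of 25 tested, 21 fell, 1 rose and 3 did not pass (TwdlF, TwdlR and TwdlO), beside the same background of 20.2% lower and 17.9% higher, and the median log2 fold change was -1.27. The ranges of the groups were apart and lower in 21 genes and apart and higher in 1, beside 27.6% and 26.1% of all genes. Leaving out any single library left between 20 and 22 calls. Fitted together with the other 6 libraries, whose double heterozygotes scattered widely, 6 calls were left.

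TwdlM was at 2515, 3023 and 2031 CPM in the Gpdh1 heterozygotes, 620.3, 721 and 734 in the Gpdh1 mutants, 245, 7.76 and 779 in the double heterozygotes and 299, 310.1 and 327 in the double mutants. TwdlM was the most abundant Tweedle gene of the Gpdh1 heterozygotes at 2449.5 CPM per kb, and the Gpdh1 mutants, at most 734 CPM, did not overlap the controls, with a log2 change of -1.86 ± 0.15 (SE, adjusted p = 0.000395). In the double heterozygotes the 3 libraries spanned 7.76 to 779 CPM, so the double mutants, which lay between them, gave no call (a log2 change of -0.15 ± 1.19 (SE, adjusted p = 0.926)). TwdlB was at 983, 1934 and 1285 CPM in the Gpdh1 heterozygotes, 233, 358 and 342 in the Gpdh1 mutants, 44.4, 1.86 and 183 in the double heterozygotes and 109, 116 and 118 in the double mutants. TwdlK was at 772, 1465 and 921 CPM in the Gpdh1 heterozygotes, 212, 224 and 254 in the Gpdh1 mutants, 23.4, 0.304 and 138 in the double heterozygotes and 94.0, 95.2 and 103 in the double mutants. These neighbours in the main cluster showed the same picture, at -2.17 ± 0.27 (SE) and -2.19 ± 0.23 (SE) in Gpdh1 mutants. In double heterozygote replicate 2 TwdlK was at 0.304 CPM, which was 0.377% of the mean of replicates 1 and 3, the lowest such value of the family.

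TwdlH was at 1364, 1217 and 934 CPM in the Gpdh1 heterozygotes, 617, 728 and 715 in the Gpdh1 mutants, 203, 9.36 and 474 in the double heterozygotes and 197, 202 and 197 in the double mutants. TwdlD was at 244, 231 and 155 CPM in the Gpdh1 heterozygotes, 61.2, 59.9 and 68.5 in the Gpdh1 mutants, 31.5, 0.723 and 81.7 in the double heterozygotes and 23.4, 25.4 and 26.5 in the double mutants. The log2 fold change in Gpdh1 mutants was -0.77 ± 0.14 (SE) for TwdlH and -1.73 ± 0.17 (SE) for TwdlD. For TwdlD, whose mutation shortens the larva, the double mutants lay inside the spread of the double heterozygotes. TwdlJ and TwdlL of the same cluster also fell in Gpdh1 mutants, at -2.02 and -2.14 on the log2 scale, as did TwdlS at -1.27. TwdlR, at 69.8 to 86.0 CPM in Gpdh1 mutants and 67.1 to 117 in their controls, did not pass the test.

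Within the same 74.5 kb, 4 genes ran a course of their own. TwdlN was at 280.0, 1011 and 489 CPM in the Gpdh1 heterozygotes, 87.5, 71.6 and 114 in the Gpdh1 mutants, 17.0, 19.0 and 46.2 in the double heterozygotes and 122, 124 and 135 in the double mutants. TwdlP was at 59.3, 257 and 125 CPM in the Gpdh1 heterozygotes, 18.6, 14.2 and 26.7 in the Gpdh1 mutants, 9.79, 11.6 and 10.2 in the double heterozygotes and 68.2, 67.4 and 70.8 in the double mutants. Both had their highest library among the Gpdh1 heterozygotes, fell in Gpdh1 mutants (-2.70 and -2.89) and rose in double mutants relative to double heterozygotes (2.21 and 2.71). For TwdlP every double mutant library was above every library of the Gpdh1 mutants and double heterozygotes, with little scatter in double heterozygote replicate 2 (117% of the mean of the others). The difference between the contrasts was a log2 change of 4.92 ± 0.67 (SE, adjusted p = 0.000650) for TwdlN and a log2 change of 5.60 ± 0.62 (SE, adjusted p = 0.000212) for TwdlP. The double mutants lay above the lowest Gpdh1 heterozygote for TwdlP and below it for TwdlN.

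TwdlO was at 13.6, 188 and 55.4 CPM in the Gpdh1 heterozygotes, 19.8, 23.9 and 41.9 in the Gpdh1 mutants, 122, 241 and 100.4 in the double heterozygotes and 211, 212 and 224 in the double mutants. TwdlO was the only Tweedle gene whose lowest library was a Gpdh1 heterozygote and whose highest was double heterozygote replicate 2. Its controls spread from 13.6 to 188 CPM, and it passed neither mutant contrast, yet it was higher in double mutants than in Gpdh1 mutants, a log2 change of 2.92 ± 0.74 (SE, adjusted p = 0.0100). TwdlQ was at 108, 84.2 and 91.8 CPM in the Gpdh1 heterozygotes, 170.1, 197 and 217 in the Gpdh1 mutants, 40.3, 22.3 and 66.6 in the double heterozygotes and 32.1, 30.6 and 29.9 in the double mutants. TwdlQ, at the far end of the cluster, was the single Tweedle gene that rose in Gpdh1 mutants, a log2 change of 1.04 ± 0.12 (SE, adjusted p = 0.00113). It was then lower in the double mutants than in the Gpdh1 mutants, at -2.66 ± 0.31 (SE), with a difference between the mutant contrasts of -1.52 ± 0.41 (SE).

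**Figure D4:**
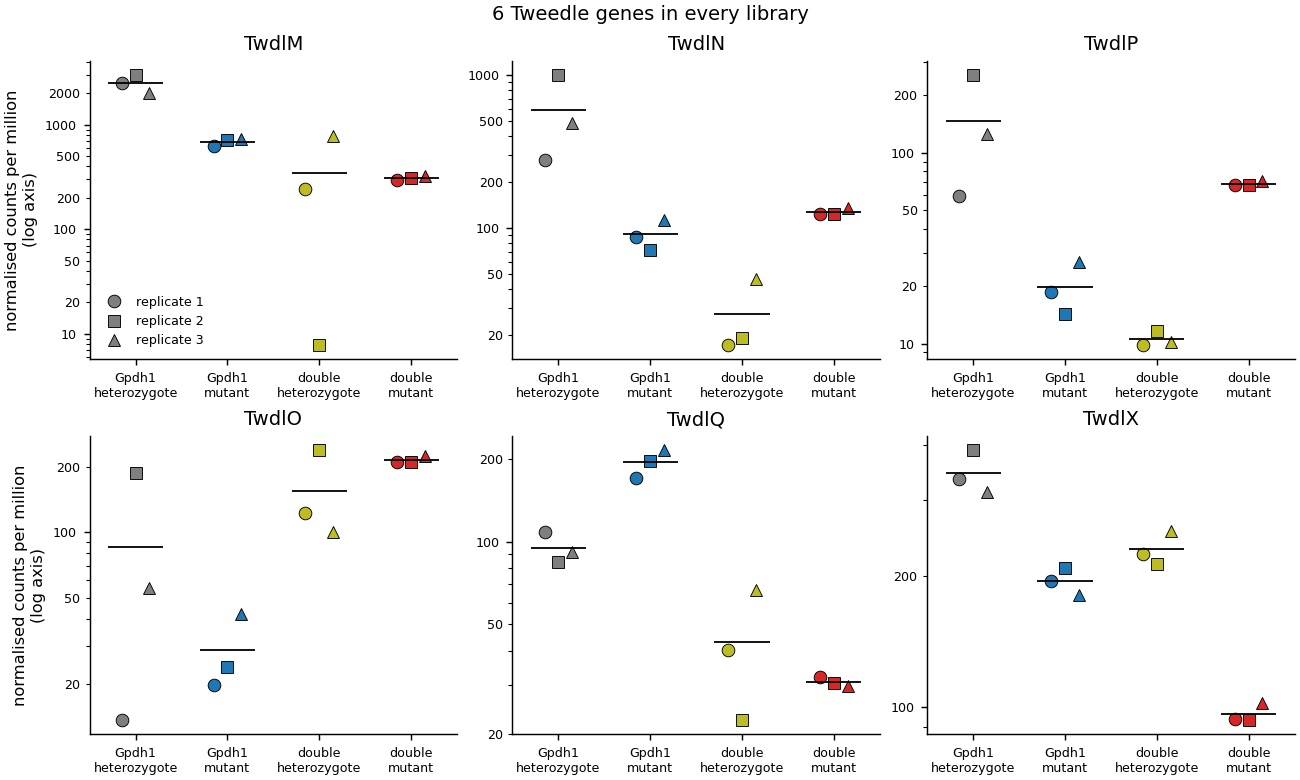
Normalised counts (CPM), on a log axis, of TwdlM and of 5 Tweedle genes that differed from it, in each library. Symbols are replicates, colours are groups and lines are group means; TwdlN and TwdlP are higher in double mutants than in double heterozygotes, TwdlQ is highest in Gpdh1 mutants, and TwdlX is lowest in double mutants at 93.0 to 102 CPM.

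Outside the main cluster the Tweedle genes also fell in Gpdh1 mutants, with TwdlF as the exception. TwdlF was at 1912, 1321 and 1743 CPM in the Gpdh1 heterozygotes, 1496, 1931 and 1838 in the Gpdh1 mutants, 993, 331 and 1441 in the double heterozygotes and 424, 431 and 426 in the double mutants. TwdlF overlapped between Gpdh1 mutants and controls, at 0.08 ± 0.16 (SE), and was the most abundant Tweedle gene of the mutants per kilobase, 1421 CPM per kb in Gpdh1 mutants and 346 in double mutants. Its near neighbours TwdlG and TwdlV fell in Gpdh1 mutants, at -0.40 and -0.76 on the log2 scale. TwdlW was at 1078, 802 and 637 CPM in the Gpdh1 heterozygotes, 465, 366 and 457 in the Gpdh1 mutants, 255, 30.3 and 525 in the double heterozygotes and 128, 132 and 129 in the double mutants. TwdlC was at 139, 183 and 118 CPM in the Gpdh1 heterozygotes, 34.1, 39.7 and 40.8 in the Gpdh1 mutants, 15.2, 1.10 and 34.5 in the double heterozygotes and 16.9, 16.4 and 16.6 in the double mutants. The fall in Gpdh1 mutants was -0.96 ± 0.19 (SE) log2 units for TwdlW and -1.94 ± 0.17 (SE) for TwdlC, and for both the double heterozygotes bracketed the double mutants.

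The X-linked cluster held genes that moved apart from each other. TwdlX was at 335, 391 and 312 CPM in the Gpdh1 heterozygotes, 195, 209 and 181 in the Gpdh1 mutants, 225, 213 and 254 in the double heterozygotes and 93.9, 93.0 and 102 in the double mutants. For TwdlX double heterozygote replicate 2 was at 89.0% of the mean of the other libraries of its group. The gene fell in both mutants, with log2 fold changes of -0.82 ± 0.10 (SE) in Gpdh1 mutants and -1.26 ± 0.08 (SE) in double mutants, and the double mutants lay below the 9 other libraries. Twdlalpha was at 82.6, 155 and 74.3 CPM in the Gpdh1 heterozygotes, 25.4, 27.3 and 33.2 in the Gpdh1 mutants, 15.7, 14.9 and 20.7 in the double heterozygotes and 26.1, 24.8 and 24.3 in the double mutants. Twdlalpha instead fell in Gpdh1 mutants, -1.86 ± 0.28 (SE), and rose in double mutants, 0.55 ± 0.13 (SE), so that the difference between the contrasts was 2.41 ± 0.35 (SE). TwdlY and TwdlZ between them fell in Gpdh1 mutants, at -1.75 and -0.75 on the log2 scale, and did not pass in double mutants. TwdlZ was the scarcest Tweedle gene, at 0.532 to 3.37 CPM.

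In double mutants relative to double heterozygotes, 1 Tweedle gene fell (TwdlX) and 3 rose (TwdlN, TwdlP and Twdlalpha), beside 25.9% of all genes lower and 25.3% higher, and 21 did not pass the test. The median log2 fold change was -0.60. Ranges were apart and lower in 1 gene and apart and higher in 3, beside 31.4% and 30.7% of all genes, and overlapped in 21. This count depended on double heterozygote replicate 2, without which 14 Tweedle genes fell and 4 rose, beside 3092 and 3113 of all 10780 genes. A missed threshold here does not show that these genes were alike in the double mutants and their controls. With the double mutants treated as 1 summed sample 2 calls were left, and with all 12 libraries in the fit there were 7.

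Against the Gpdh1 mutants, 10 Tweedle genes were lower in the double mutants and 2 were higher (TwdlO and TwdlP), beside 20.0% of all genes lower and 18.9% higher, with a median log2 fold change of -1.57. By range alone, the double mutants were below the Gpdh1 mutants in 21 genes and above them in 3, beside 27.9% and 29.1% of all genes. Without double heterozygote replicate 2 in the shared fit, 19 were lower and 2 higher, beside 2455 and 2224 of all 11008 genes. The largest fall with a called test was that of TwdlQ, a log2 change of -2.66 ± 0.31 (SE, adjusted p = 8.32e-05).

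Tweedle genes differed between the control groups as well. Relative to Gpdh1 heterozygotes, the double heterozygotes were lower in 15 of 25 and higher in 0, beside 12.3% lower and 14.1% higher of all genes, with a median log2 fold change of -1.72 and ranges apart and lower in 22 genes (background 18.2%). The log2 fold change was -4.44 ± 0.52 (SE) for TwdlN and -2.61 ± 0.26 (SE) for Twdlalpha. The count was 7 without double heterozygote replicate 1, 23 without replicate 2 and 24 without replicate 3. Over all genes 1099 of 11017, 1205 of 11008 and 1395 of 11010 were then lower, in that order. Of the 25 genes, 22 had their highest library among the Gpdh1 heterozygotes, whereas 8 of the 16 Osiris genes had theirs among the double heterozygotes. Replicate 3 of the double heterozygotes was 1.79 times replicate 1 over the Tweedle genes (median, range 0.821 to 7.28) and 0.883 times over the Osiris genes. The Gpdh1 contrast and this one share the Gpdh1 heterozygotes.

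For the difference between the mutant contrasts, 2 Tweedle genes were called lower (TwdlQ and TwdlX) and 3 higher (TwdlN, TwdlP and Twdlalpha), beside 13.5% and 12.0% of all genes, and the median difference was 0.57 log2 units. For TwdlX the call was lost with RLE size factors, with no filter and with a stricter filter (adjusted p between 0.0521 and 0.0529), with a replicate block (adjusted p = 0.0664) and with the double mutants summed (adjusted p = 0.198). Without double heterozygote replicate 2, 9 were lower and 8 higher, beside 1704 and 1331 of all 11008 genes. Without replicate 3, 1 was lower and 8 higher, beside 1366 and 1259 of all 11010 genes. Leaving out Gpdh1 mutant replicate 3 or double mutant replicate 2 or 3 gave 3 calls, as did summing the double mutants. Side by side, the Osiris genes thus had medians of -0.13 in Gpdh1 mutants and -1.34 in double mutants. The Tweedle medians were -1.27 and -0.60. Both double mutant medians include double heterozygote replicate 2, which was low in both families. Against the Gpdh1 mutants, the double mutants had medians of -1.49 for Osiris and -1.57 for Tweedle genes. Between the control groups the medians were -0.30 and -1.72, in that order. No test was made of one family against the other.

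**Figure D5:**
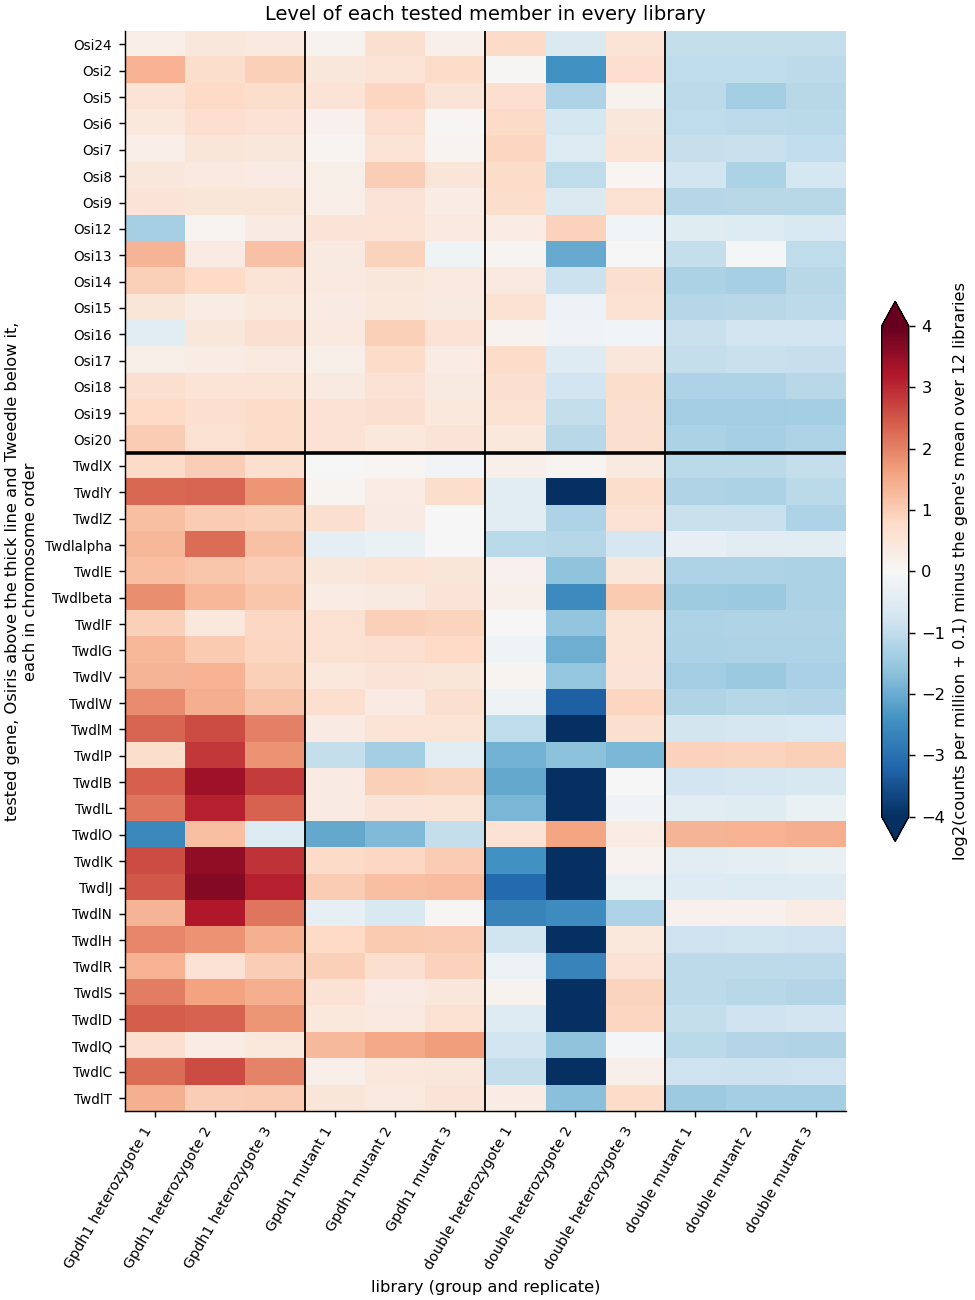
Level of each of the 41 tested members in the 12 libraries, as log2(CPM + 0.1) minus the gene's own mean, with Osiris genes above the thick line and Tweedle genes below it. Red is above and blue below the gene's mean. The double mutant columns are blue for most Osiris genes, and the Gpdh1 heterozygote columns are red for most Tweedle genes. Double heterozygote replicate 2 is the lowest library, and so the darkest blue, for 21 of 25 Tweedle genes but only 2 of 16 Osiris genes.

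Other cuticle genes were read from lists for comparison. Over all genes, 20.2% fell and 17.9% rose in Gpdh1 mutants, and 25.9% fell and 25.3% rose in double mutants. Without double heterozygote replicate 2, 3092 of all 10780 genes fell in double mutants and 3113 rose. Of the Cpr genes, which encode chitin-binding cuticle proteins, 38 of 52 tested fell and 3 rose in Gpdh1 mutants, with a median of -1.31 log2 units. In double mutants 2 of 51 fell and 9 rose with a median of -0.20, and without double heterozygote replicate 2 these counts were 22 and 15. The larval cuticle proteins (Lcp genes) fell in 13 of 13 in Gpdh1 mutants (median -1.73), and in double mutants 1 fell and 5 rose, or 3 and 6 without double heterozygote replicate 2. Of 7 tested genes that harden and darken cuticle, 7 fell in Gpdh1 mutants, among them yellow (y, -1.70 ± 0.15 (SE)) and Dopa decarboxylase (Ddc, -1.53 ± 0.22 (SE)). In double mutants ebony (e) and the tyrosine hydroxylase pale (ple) rose by 0.92 ± 0.13 (SE) and 0.75 ± 0.13 (SE), and straw (stw) fell, so that 1 of 6 fell and 2 rose, or 3 and 2 without double heterozygote replicate 2.

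Genes of chitin synthesis and organisation fell in 11 of 20 in Gpdh1 mutants and rose in 2, and fell in 6 and rose in 2 in double mutants. Without double heterozygote replicate 2, 13 of the 20 fell in double mutants and 3 rose. The UDP-N-acetylglucosamine enzyme gene mummy (mmy) had a log2 fold change of -1.16 ± 0.13 (SE) in Gpdh1 mutants. The apical extracellular matrix list, mostly zona pellucida domain proteins that tie the membrane to the cuticle, behaved otherwise. Of its 9 genes, 3 rose and 1 fell in Gpdh1 mutants, the latter being forked (f, -0.36 ± 0.12 (SE)). In double mutants 0 rose and 6 fell, and the difference between the contrasts called 6 lower and 0 higher. Among them miniature (m) and nyobe (nyo) changed in double mutants by -1.37 ± 0.15 (SE) and -1.25 ± 0.17 (SE). All of these counts stand beside the same shares of all genes given above, and none of the lists was tested as a set.

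Genes that regulate cuticle cells and the molt were also listed. Beside their counts, 20.2% of all genes fell and 17.9% rose in Gpdh1 mutants, and 25.9% fell and 25.3% rose in double mutants. Of the transcription factors of cuticle cells, ovo (shavenbaby) and CrebA rose in Gpdh1 mutants by 0.56 ± 0.11 (SE) and 0.32 ± 0.07 (SE), and in double mutants CrebA, trachealess (trh) and ventral veins lacking (vvl) fell while ribbon (rib) rose by 2.46 ± 0.22 (SE). Of 12 genes of the ecdysone response, 5 rose and 4 fell in Gpdh1 mutants, with Hr3 up by 0.90 ± 0.13 (SE) and Eip74EF down by 1.20. In double mutants 0 rose and 3 fell, near the share of all genes that fell. These were Hr38 at -1.54 ± 0.20 (SE), Hr4 at -1.01 ± 0.06 (SE) and usp at -0.22 ± 0.07 (SE). Without double heterozygote replicate 2, 6 fell and 2 rose.

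Markers of other tissues and of stage moved with the genotypes. Their counts stand beside the same shares, 20.2% lower and 17.9% higher in Gpdh1 mutants and 25.9% and 25.3% in double mutants. The larval serum protein list, 6 fat body genes of the L3 stage, summed to 3421 to 8466 CPM in the Gpdh1 heterozygotes, 38.6 to 141 in the Gpdh1 mutants, 569 to 4044 in the double heterozygotes and 16.7 to 17.6 in the double mutants. In Gpdh1 mutants 3 of 5 tested fell and 1 rose, and in double mutants 3 of 4 fell and 1 rose, or 3 and 2 of 5 without double heterozygote replicate 2. The 3 that fell in each were Lsp1alpha, Lsp1beta and Lsp1gamma, the last with log2 fold changes of -7.08 ± 0.56 (SE) and -7.93 ± 0.92 (SE). Fbp1, which encodes a fat body protein that takes up larval serum protein, instead rose in both, by 4.71 ± 0.56 (SE) and 6.0 ± 0.21 (SE). Its level cannot exceed the list sum, at most 17.6 CPM in the double mutants, so its rise there started near the counting floor. Glue genes of the late L3 salivary gland stayed at or below 1.4 CPM summed in every library. Muscle genes fell in 7 of 8 in each mutant. Their sum was 59626 to 62081 CPM in the Gpdh1 heterozygotes, 43371 to 48955 in the Gpdh1 mutants, 54068 to 59639 in the double heterozygotes and 43315 to 44332 in the double mutants. Midgut genes rose in 4 of 7 in Gpdh1 mutants and in 7 of 7 in double mutants. Their sum was 387 to 604 CPM in the Gpdh1 heterozygotes, 844 to 1009.8 in the Gpdh1 mutants, 586 to 628 in the double heterozygotes and 2518 to 2623 in the double mutants. Tracheal genes, from another tissue lined with cuticle, ran at 6515 to 8358 CPM in the Gpdh1 heterozygotes, 4650 to 5004 in the Gpdh1 mutants, 1694 to 5048 in the double heterozygotes and 1903 to 1936 in the double mutants. Of the 6 tracheal genes 2 fell and 1 rose in Gpdh1 mutants, and 2 fell in double mutants, or 5 without double heterozygote replicate 2. The tracheal list shares serp, verm and Gasp with the chitin list and trh with the transcription factors, so it is not separate from them. Imaginal disc genes summed to between 89.2 and 102 CPM in all libraries, but single genes moved. In Gpdh1 mutants 1 of 8 rose and 1 fell. In double mutants 2 rose and 2 fell, near the shares of all genes, or 3 and 1 without double heterozygote replicate 2. With all libraries nub was at 1.81 ± 0.08 (SE) and ap at -0.68 ± 0.08 (SE) in double mutants. Neuronal genes rose in 3 of 6 in Gpdh1 mutants and in 4 of 6 in double mutants, and 0 fell. Their sum was 177 to 185 CPM in the Gpdh1 heterozygotes, 202 to 227 in the Gpdh1 mutants, 172 to 186 in the double heterozygotes and 214 to 244 in the double mutants. The part of stage and tissue make-up in the Osiris and Tweedle values was not tested.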

How the data were processed

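Whole larvae of 4 genotypes were profiled by RNA-seq in 3 libraries each. The authors deposited raw counts of reads per FlyBase gene for each library, and their processing notes name bcl2fastq 2.20.0.422, cutadapt 1.12, HISAT2 2.1.0 and HTSeq 0.9.0; the strand setting and the build of these counts are not given in the sources used here, and reads with more than 1 alignment (8.06% to 14.7%) were not assigned to genes. Symbols and positions came from the BDGP6.54 annotation, and the 5 summary lines of each file were left out. Counts were tested with edgeR 4.0.16 (limma 3.58.1, R 4.3.3) by the quasi-likelihood F test after filterByExpr (minimum count 10) and TMM scaling, with Benjamini-Hochberg adjustment over all genes tested; a gene was called at an adjusted p under 0.05 with no fold limit. Each mutant was fitted with its own controls (6 libraries), and comparisons across crosses used all 12. SE is the log2 fold change divided by the square root of F. The scripts were tested on simulated data. Alternatives were DESeq2 1.42.0, its size factors (RLE), other filters, a log2 fold limit of 1, all 12 libraries in 1 fit, a replicate block, summed double mutants and leaving out each library. Values of every library are given for the 6 most abundant members of each family, the 4 with the smallest adjusted p in each mutant contrast and in their difference, and members called against their family. Members and lists were chosen with earlier results of these data known.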

Additional observations from a re-analysis of the deposited data

Results flagged for a closer look

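For 14 members the change in double mutants, relative to double heterozygotes, differed from the change in Gpdh1 mutants, relative to Gpdh1 heterozygotes, in a test of the difference itself (edgeR, adjusted p under 0.05). Among Osiris genes the difference in log2 fold change was -1.65 for Osi12, -1.46 for Osi19, -1.44 for Osi15, -1.38 for Osi17, -1.37 for Osi18, -1.35 for Osi9, -1.27 for Osi24, -1.19 for Osi7 and -1.15 for Osi16. Among Tweedle genes it was -1.52 for TwdlQ, -0.43 for TwdlX, 2.41 for Twdlalpha, 4.92 for TwdlN and 5.60 for TwdlP. The call for TwdlX was lost under RLE size factors, both other filters, the replicate block and summed double mutants (adjusted p between 0.0521 and 0.198). These are the genes with a called difference and not a full list of genes that may differ, since double heterozygote replicate 2 stood apart. That library was picked out from these same data. A search gene by gene for single outlying libraries was not made in groups of 3.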

How the results depend on the processing

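Of the log2 fold changes called for the named members, 213 of 248 kept their call under the other settings and 231 of 306 when a library was left out, and 0 reversed. Of Osiris genes in Gpdh1 mutants (1 called), 0 passed a log2 fold limit of 1, 0 the fit of all 12 libraries and 3 DESeq2. Of Tweedle genes there (22 called), 14 passed the fold limit and 6 the fit of all 12 libraries, which gave 7 instead of 4 Tweedle genes in double mutants. With the double mutant libraries summed, the counts in double mutants against double heterozygotes were 0 Osiris (12) and 2 Tweedle (4), against Gpdh1 mutants 4 Osiris (15) and 2 Tweedle (12), and for the difference between the mutant contrasts 1 Osiris (9) and 3 Tweedle (5). Leaving out each library in turn gave 0 to 2 Osiris and 20 to 22 Tweedle genes in Gpdh1 mutants, 3 to 15 and 4 to 18 in double mutants, 0 to 2 and 7 to 24 between the control groups, 13 to 16 and 9 to 21 between the mutant groups, and 3 to 14 and 3 to 17 for the difference. The cause was not tested. Calls over all genes were also fewer with the double mutants summed. Same-numbered libraries did not deviate together (r of -0.29, -0.32 and -0.06 in the Gpdh1 groups, 0.01, 0.03 and 0.04 in the double groups). The double mutants varied little and groups were small, so these values cannot show whether the numbers pair libraries. With a replicate block 0 Osiris genes were called in Gpdh1 mutants. Depth limits the 7 untested Osiris genes, and Osi8, Osi13 and TwdlZ among those tested.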

Other observations

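Other genes lie inside the clusters and did not all follow the family around them. CG15597, inside the Osiris cluster, was at 21.6 to 138 CPM in the Gpdh1 heterozygotes, 3.58 to 6.48 in the Gpdh1 mutants, 7.88 to 14.6 in the double heterozygotes and 120 to 133 in the double mutants. Its log2 fold change was -3.87 ± 0.69 (SE, adjusted p = 0.00519) in Gpdh1 mutants and 3.61 ± 0.25 (SE, adjusted p = 8.06e-05) in double mutants, the opposite direction to most Osiris genes beside it. CG46026, in the same cluster, was at 40.1 to 73.2 CPM in the double heterozygotes and 13.9 to 17.7 in the double mutants, a log2 fold change of -1.86 ± 0.23 (SE, adjusted p = 0.000924), against 0.24 ± 0.16 (SE, adjusted p = 0.288) in Gpdh1 mutants. NPFR, a neuropeptide receptor gene in the same cluster, passed the test in neither contrast (adjusted p = 0.0956 and 0.0935).

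Tb, which encodes TwdlA and lies in the main Tweedle cluster, was at 473 to 874 CPM in the Gpdh1 heterozygotes, 599.6 to 663 in the Gpdh1 mutants, 56.9 to 527 in the double heterozygotes and 143 to 147 in the double mutants. It passed neither mutant contrast, at -0.12 ± 0.20 (SE, adjusted p = 0.681) in Gpdh1 mutants and -1.05 ± 0.68 (SE, adjusted p = 0.239) in double mutants, and was lower in double mutants than in Gpdh1 mutants (adjusted p = 0.0134). These genes were picked from those lying inside the clusters, after the values were seen. Other genes inside the clusters, among them CG31560, beat-VII, CG6296 and CG6271, were not described.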
